A study of Mus musculus with 16 samples.

Results

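The 3 genes described here encode the releasing hormones of the hypothalamus that drive the thyroid, adrenal and gonadal axes: *Trh*, *Crh* and *Gnrh1*. They were taken by symbol from the 28683 genes listed for 16 single-cell libraries of the mouse hypothalamus and preoptic area, and all 3 were found. Each library was made by Drop-seq from 1 female mouse. In Drop-seq a cell is captured in a droplet with a barcoded bead, and each captured transcript is counted once by its unique molecular identifier (UMI).

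Mice were of a mixed CD-1;129P2 background and 8 to 10 weeks old at the start. They received tamoxifen, a ligand of estrogen receptors used in breast cancer therapy, at 0.1 mg/kg, or corn oil, its vehicle, by 28 daily subcutaneous injections over 4 weeks, and tissue was taken 2 hours after the last one. Wild-type mice (WT) were littermates without Cre and made up 3 oil and 5 tamoxifen libraries. *Esr1* cKO mice carried floxed *Esr1* and an Nkx2-1 Cre transgene and made up 4 oil and 4 tamoxifen libraries. The Cre acts in the Nkx2-1 lineage of the ventral forebrain, so neurons of other lineages kept *Esr1*, and no group carried Cre without the floxed allele. The comparisons ask whether tamoxifen, loss of estrogen receptor alpha in this lineage, or both moved the 3 hormones.

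Releasing hormones are made as large precursors by scattered hypothalamic neurons whose axons end at the median eminence, and they reach the pituitary through its portal blood. Thyrotropin-releasing hormone (TRH) from the paraventricular nucleus stimulates thyrotropin, corticotropin-releasing hormone (CRH) from the same nucleus stimulates corticotropin, and gonadotropin-releasing hormone (GnRH), from a sparse set of preoptic neurons born in the nose, stimulates the gonadotropins. Thyroid hormone, glucocorticoids and gonadal steroids feed back on these neurons, in the case of GnRH largely through neurons upstream of it.

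The sequences that become the hormones are shown first, since they are what makes these transcripts releasing hormone precursors. Coordinates are of GRCm38 with the GENCODE vM21 annotation, bases are read 5′ to 3′ on the strand of the gene, and flanking bases are in lower case. In *Crh* and *Gnrh1* capitals mark the bases of the hormone. In *Trh* they mark the 12 bases of the progenitor, whose last codon, for glycine, is not part of the mature hormone. *Trh* lay on chromosome 6 on the minus strand (chr6:92242061-92244650) with 3 exons, and its 768 coding bases held the TRH progenitor 5 times, all in exon 3. The 5 copies, from the 5′ one on, showed 4 different spellings of the 12 bases, and only copies 2 and 3 were spelled alike:
Trh copy 1 (chr6:92243088-92243111): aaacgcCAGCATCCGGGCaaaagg
Trh copy 2 (chr6:92242992-92243015): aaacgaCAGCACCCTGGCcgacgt
Trh copy 3 (chr6:92242857-92242880): aagcggCAGCACCCTGGCaggcga
Trh copy 4 (chr6:92242803-92242826): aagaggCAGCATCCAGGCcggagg
Trh copy 5 (chr6:92242710-92242733): aaacgtCAGCATCCTGGCaaaagg

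*Crh* lay on chromosome 3 on the minus strand (chr3:19693401-19695396) with 2 exons, and its hormone was encoded once, by 123 bases in exon 2, or 21.9% of the 561 coding bases. *Gnrh1* lay on chromosome 14 on the plus strand (chr14:67745181-67749439) with 4 exons, and its hormone was encoded once, by 30 bases in exon 2, or 11.1% of the 270 coding bases:
Crh (chr3:19693916-19694047): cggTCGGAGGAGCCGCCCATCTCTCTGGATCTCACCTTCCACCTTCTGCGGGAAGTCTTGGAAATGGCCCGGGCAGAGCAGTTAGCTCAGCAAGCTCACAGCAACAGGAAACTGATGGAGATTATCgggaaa
Gnrh1 (chr14:67746409-67746447): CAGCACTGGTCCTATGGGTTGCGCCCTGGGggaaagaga

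Overlap of the 3 with other annotated genes was not checked, so whether UMIs were shared with a neighbour is not known here. Drop-seq counts the 3′ ends of transcripts, and a UMI shows that the gene was transcribed but not which hormone copies its precursor carried.

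The libraries held 2634253 to 8038158 UMIs in 5403 to 13515 barcodes. After the filter on cells, 55675 cells remained, of which 9143 were neurons, with 243 to 904 neurons per mouse and a median of 819.5 to 2592 UMIs per neuron. The cluster called neurons passed on all 10 of its listed markers. The libraries of WT oil mouse 3 and cKO tamoxifen mouse 3 stood apart from the other 14, with first principal component scores of 129.9 and 126.6 against -48.3 to -2.07, and each of their deposited barcodes had at least 100 genes. The libraries numbered 13 to 16 (WT tamoxifen mice 4 and 5, cKO oil mouse 4 and cKO tamoxifen mouse 4) shared many cell barcodes. In these 4 libraries 295 barcodes were in all 4, each time with the same cell type and with UMI totals correlated across the barcodes at r = 0.993 to 0.997. Over all libraries, 1717 cells (3.08%) and 334 neurons (3.65%) had a barcode that another library also held, among them 4 of the 131 neurons with at least 2 *Trh* UMIs, 1 of 34 with *Crh* and 0 of 15 with *Gnrh1*. *Esr1* UMIs per 1000000 UMIs of the neurons (CPM) were 44.1 to 86.5 in WT oil, 57.3 to 74.4 in WT tamoxifen, 41.4 to 58.9 in cKO oil and 17.1 to 73.9 in cKO tamoxifen mice. The 3′ tags of *Esr1* need not include the deleted part, so they do not check the genotype.

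All 3 messages lay mainly in neurons. Neurons held 94.9% of all *Trh* UMIs in the kept cells (1060 of 1117), 93.9% of *Crh* UMIs (260 of 277) and 96.0% of *Gnrh1* UMIs (2520 of 2624). *Trh* was found in 261 of 9143 neurons (2.85%, exact Clopper-Pearson 95% interval 2.52% to 3.22%), *Crh* in 89 (0.973%, 0.782% to 1.2%) and *Gnrh1* in 53 (0.580%, 0.435% to 0.758%). Free RNA gives UMIs in cells that do not express a gene, and cells other than neurons served as a guide to that level. Of them, 0.110% had a *Trh* UMI, 0.0344% a *Crh* UMI and 0.221% a *Gnrh1* UMI, at a median depth of 628 UMIs against 1490 in neurons. Whether these UMIs were free RNA was not tested. In these other cells the *Gnrh1* level was 1.07% of all its UMIs in astrocytes and 0.762% in oligodendrocytes, and no astrocyte had more than 1 *Gnrh1* or *Trh* UMI. At least 2 UMIs were found in 5 of the other cells for *Trh*, in 1 for *Crh* (an astrocyte) and in 1 for *Gnrh1*. Intervals cover counting error only.

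The 3 genes differed in how their UMIs were spread over neurons. Of the neurons with *Trh*, 130 had 1 UMI, 38 had 2, 51 had 3 to 5, 18 had 6 to 10 and 24 had more than 10, with 41 as the most, so that levels graded from single molecules upwards. *Crh* had the same graded shape in fewer neurons, with 55 at 1 UMI, 12 at 2, 11 at 3 to 5, 6 at 6 to 10 and 5 above 10, and 32 as the most. *Gnrh1* was split: 38 neurons had 1 UMI, 4 had 2, 1 had 3 to 5, none had 6 to 10, and 10 had 31 to 410. Those 10 neurons held 98.0% of the *Gnrh1* UMIs in neurons. A neuron was counted as having a hormone from 2 UMIs on, which gave 131 neurons with *Trh* (1.43%), 34 with *Crh* (0.372%) and 15 with *Gnrh1* (0.164%). No neuron had at least 2 UMIs of more than 1 of the 3 hormones. With at least 1 UMI of each, 5 neurons had *Trh* and *Crh*, 3 had *Trh* and *Gnrh1* and 1 had *Crh* and *Gnrh1*.

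**Figure D1:**
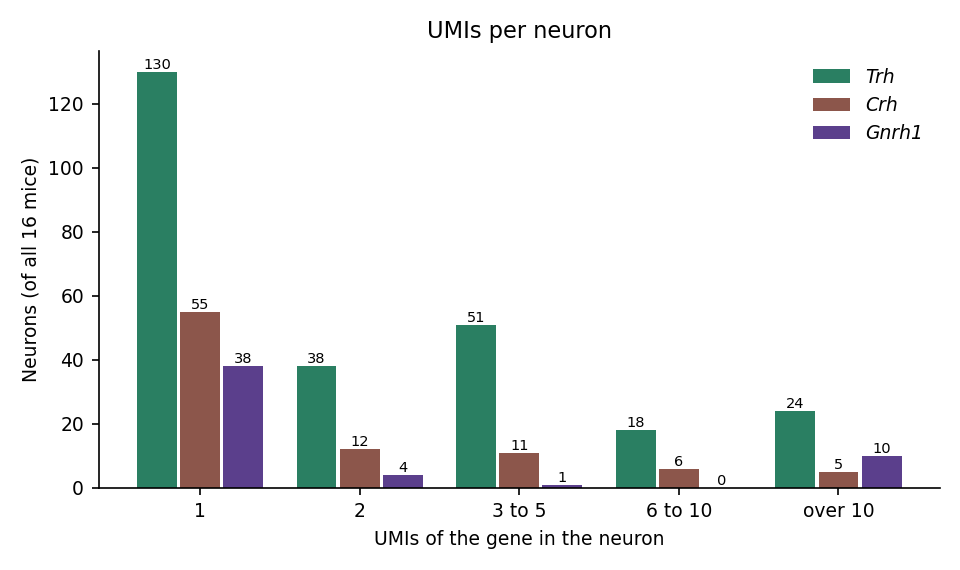
Number of neurons (y axis, all 16 mice together) by the number of UMIs of *Trh*, *Crh* or *Gnrh1* in the neuron (x axis, 5 classes). *Trh* and *Crh* fall off from 1 UMI upwards, with 24 and 5 neurons above 10 UMIs, while *Gnrh1* has 38 neurons at 1 UMI, none at 6 to 10 and 10 above 10.

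Neurons were divided into 23 types by clustering in which the 3 members took no part, and each type is called by its leading gene. *Trh* lay mainly in the type led by *Hcrt*, the orexin precursor of the lateral hypothalamus, whose next genes were *Sst*, *Fezf1*, *Pth2*, *Cbln2* and *Adcyap1*. This type of 926 neurons held 60.6% of the *Trh* UMIs in neurons and 58 of the 131 neurons with *Trh*, at a level of 206.2 ± 161.4 CPM (mean ± SD, 16 mice). The type led by *Pmch*, the melanin-concentrating hormone precursor, held 12.5%, and the type led by *Pomc*, the melanocortin precursor, held 9.62%. The *Pmch*-led neurons had a median of only 365 UMIs, so their 133 *Trh* UMIs, in 16 neurons with at least 2, made a level of 500.02 ± 510.2 CPM over the 15 mice with at least 10 such neurons. At a finer resolution of 1.2 the *Hcrt*-led type divided. A type of 304 neurons led by *Sst*, with *Otp*, *Sim1*, *Cbln2* and *Nrn1* next, then held 55.5% of the *Trh* UMIs at 662.4 ± 423.9 CPM (15 mice, 61.4 to 1405 CPM), and 52 of its neurons (17.1%) had *Trh*. *Otp* and *Sim1* are transcription factors that specify neuroendocrine neurons of the paraventricular nucleus, whereas the *Hcrt*-led remainder of 606 neurons held 5.57%. At that resolution a *Pomc*-led type of 123 neurons held 0.755% of the *Trh* UMIs (8 UMIs). A deeper *Pmch*-led type of 865 neurons, with a median of 2110 UMIs, held 8.77% (93 UMIs). The name of the *Pomc*-led type at the main resolution therefore does not place its *Trh* in melanocortin neurons.

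*Crh* had no single main type. The *Pmch*-led type held 26.9% of its UMIs in neurons, the type led by *Oxt*, the oxytocin precursor, 23.1%, and the *Hcrt*-led type 20%. In the *Oxt*-led type, of 145 neurons, 3 neurons held all 60 UMIs. The 2 neurons with the most *Crh* of all were among these, with 32 UMIs in cKO tamoxifen mouse 3 and 25 in WT oil mouse 3, the libraries that stood apart. In the *Pmch*-led type, 11 neurons had *Crh*, and the highest were 2 neurons of WT tamoxifen mouse 5 with 17 and 11 UMIs among only 435 and 314 UMIs in all, so that *Crh* was 3.91% and 3.50% of their transcripts and second among their genes.

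*Gnrh1* lay in a handful of neurons that were almost alone in their mouse. The 10 neurons with more than 10 UMIs came from 9 mice, with 2 of them in cKO oil mouse 1. *Gnrh1* was 1.58% to 13% of the transcripts of such a neuron and its first gene in 8 of the 10. The clustering placed 6 of them in the *Pomc*-led type, with 320 to 410 UMIs each, 3 in the *Hcrt*-led type with 112, 91 and 60, and 1 in the type led by *Shox2* with 31. The *Pomc*-led type thus held 86.7% of the *Gnrh1* UMIs and the *Hcrt*-led type 10.6%. At a resolution of 1.2 the same UMIs were divided, with 57.7% in the deeper *Pmch*-led type of 865 neurons and 29.0% in a type of 49 neurons led by *Cga*. They formed no type of their own, and the type names do not describe these cells.

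**Figure D2:**
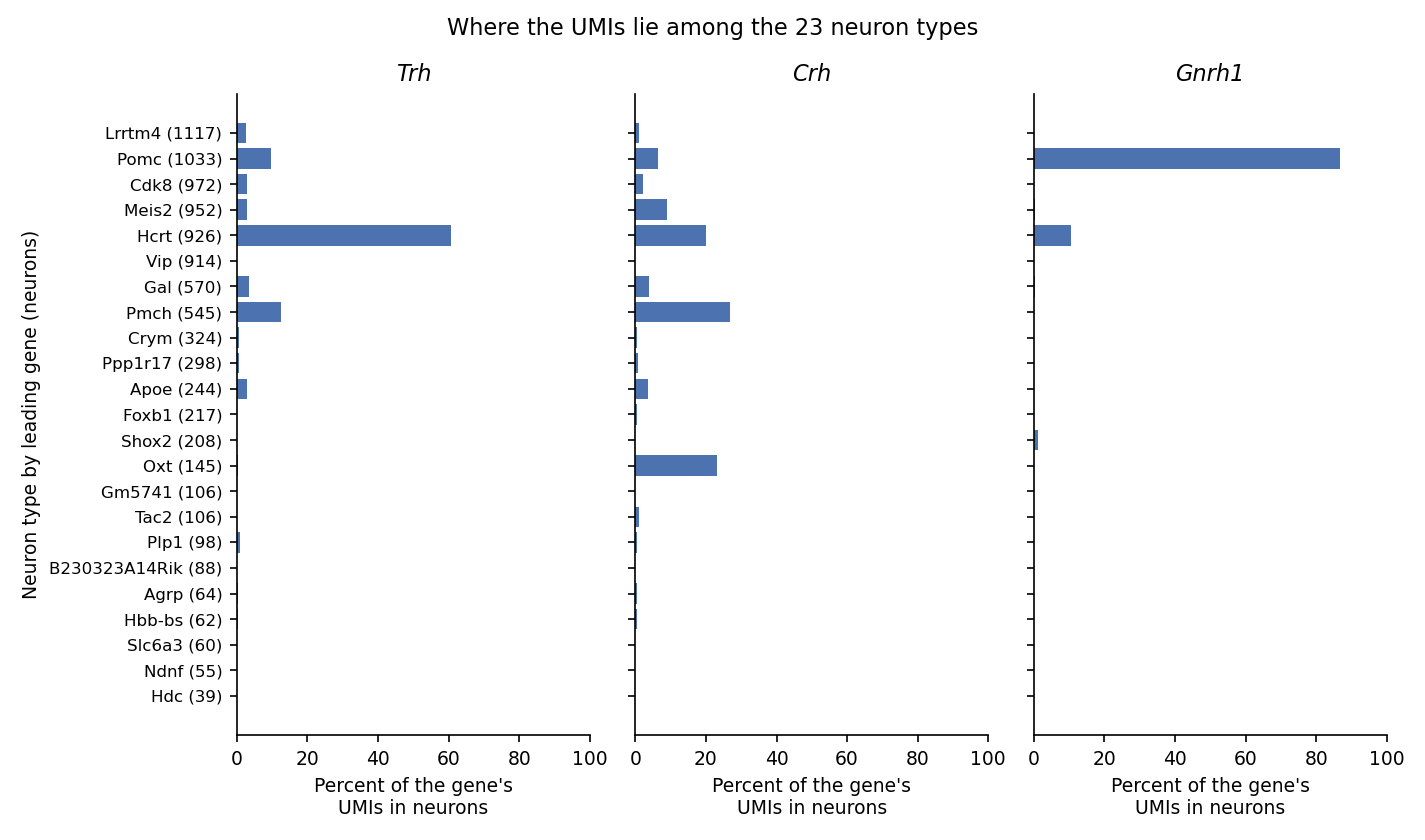
Share of the UMIs of *Trh*, *Crh* and *Gnrh1* in neurons (x axis, percent) that lay in each of the 23 neuron types (y axis, by leading gene, with the number of neurons in parentheses). *Trh* has 60.6% in the *Hcrt*-led type, *Crh* is divided among the *Pmch*-led (26.9%), *Oxt*-led (23.1%) and *Hcrt*-led (20%) types, and *Gnrh1* has 86.7% in the *Pomc*-led type.

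*Trh* in neurons was lower on average in each tamoxifen group than in its oil group and in each cKO group than in its WT group, but the mice of a group spread widely and no comparison passed the threshold. In WT oil mice 1 to 3 it was 26.1, 124.9 and 105.6 CPM. In WT tamoxifen mice 1 to 5 it was 49.8, 95.2, 59.05, 62.5 and 59.3 CPM. In cKO oil mice 1 to 4 it was 19.6, 51.4, 79.9 and 39.8 CPM, and in cKO tamoxifen mice 1 to 4 it was 62.97, 0, 15.7 and 41.9 CPM. The groups overlapped in every comparison, and the 0 of cKO tamoxifen mouse 2 came from the smallest sample, 421014 UMIs in 243 neurons, where a count of 0 allows up to 7.13 CPM and a share of up to 1.23% of neurons with a UMI (3 counts in both, which is no limit on neurons that express the gene). The group means were 85.5 ± 52.4 CPM (SD, n = 3) in WT oil, 65.2 ± 17.4 (n = 5) in WT tamoxifen, 47.7 ± 25.2 (n = 4) in cKO oil and 30.1 ± 27.9 (n = 4) in cKO tamoxifen mice.

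**Figure D3:**
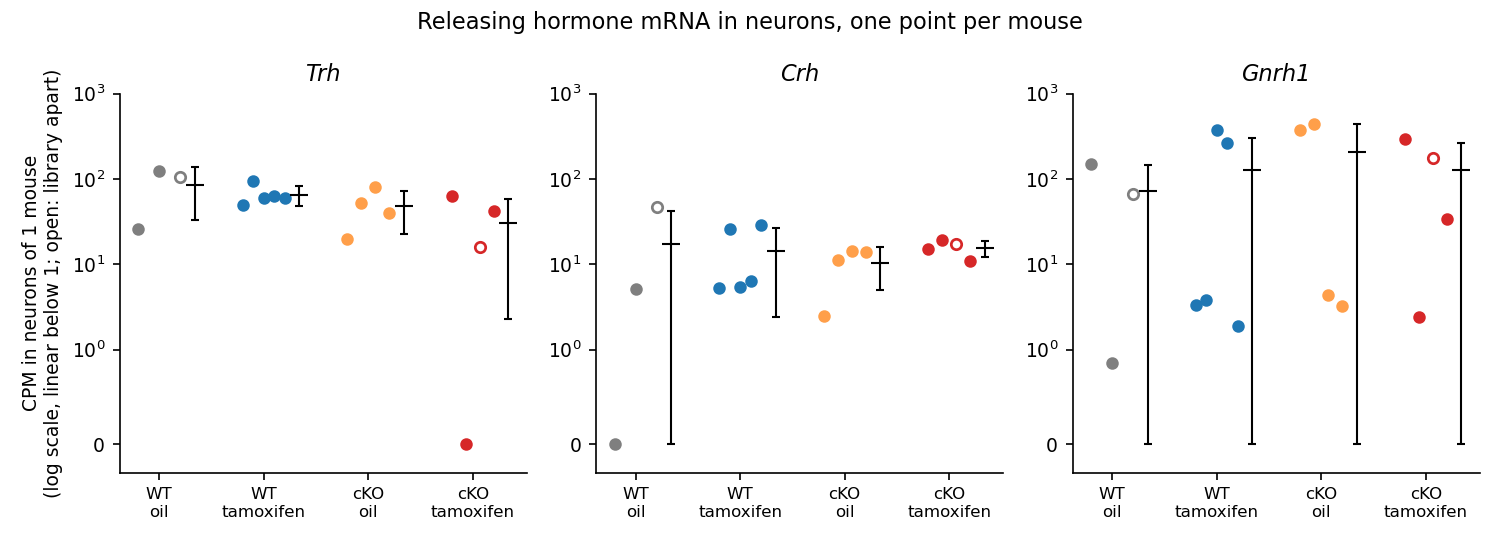
CPM of *Trh*, *Crh* and *Gnrh1* in the neurons of each mouse (y axis, log scale, linear below 1), 1 point per mouse, in the 4 groups (x axis). The black line is the group mean with its SD, drawn no lower than 0, and open circles are the 2 libraries that stood apart. *Trh* group means run from 85.5 down to 30.1 CPM with overlapping mice, and *Gnrh1* runs from 0.855 to 437.6 CPM.

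In the edgeR quasi-likelihood fit of the neurons of all 16 mice, with Benjamini-Hochberg adjustment over 12443 genes, tamoxifen against oil gave a *Trh* log2 fold change of -0.46 (SE 0.53, 95% interval -1.58 to 0.65, adjusted p = 0.9999) in WT and of -0.58 (SE 0.56, -1.75 to 0.60, adjusted p = 0.9997) in cKO mice. *Esr1* cKO against WT gave -0.85 (SE 0.56, -2.03 to 0.33, adjusted p = 0.9995) under oil and -0.97 (SE 0.53, -2.09 to 0.15, adjusted p = 0.9998) under tamoxifen. The difference between the tamoxifen responses of both genotypes was -0.12 (SE 0.77, adjusted p = 0.99999). The intervals of these 4 contrasts ran between -2.09 and 0.65 on the log2 scale, so neither a fall nor a rise within that range could be told from none. The background was low: tamoxifen against oil called 0 of 12443 genes (0%) in WT and 0 (0%) in cKO mice, cKO against WT 0 (0%) under oil and 1 (0.00804%) under tamoxifen, and the difference between responses 0 (0%). At an unadjusted p under 0.05 the numbers were 413, 383, 572, 442 and 647 genes, and DESeq2 called 1, 0, 1, 3 and 0.

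The number of neurons with *Trh* and the amount in each were compared separately. The share of neurons with at least 2 *Trh* UMIs was 2.03% ± 0.456 (SD, n = 3) in WT oil, 1.31% ± 0.537 (n = 5) in WT tamoxifen, 1.43% ± 0.652 (n = 4) in cKO oil and 1.04% ± 0.755 (n = 4) in cKO tamoxifen mice. The largest difference, between WT tamoxifen and WT oil mice, was -0.718 percentage points (95% interval -1.63 to 0.198) and did not pass a two-sided exact permutation test (p = 0.107, adjusted p = 0.898 over 12 tests, n = 5 and 3, smallest p possible 0.0357). With each neuron thinned to 500 UMIs and counted from 1 UMI on, this difference turned to 0.284, and that of cKO against WT under oil turned from -0.601 to 0.321. Among mice with at least 3 such neurons, the mean number of *Trh* UMIs per neuron with *Trh* was 2.80, 11.5 and 9.40 in WT oil mice 1 to 3. It was 7.33, 7.33, 6.67, 8.0 and 14.2 in WT tamoxifen mice 1 to 5, and 3.0, 7.0, 7.0 and 6.14 in cKO oil mice 1 to 4. It was 5.73, 2.86 and 4.57 in cKO tamoxifen mice 1, 3 and 4. All 3 cKO tamoxifen mice lay below all 5 WT tamoxifen mice, at 4.39 ± 1.44 (SD, n = 3) against 8.72 ± 3.13 (n = 5), the only one of the 4 comparisons whose groups did not overlap. Mouse 2 of the cKO tamoxifen group had no *Trh* UMI and so no value, and other genes were not compared in this way. The difference of -4.33 UMIs (95% interval -8.34 to -0.323) had p = 0.0357 in a two-sided exact permutation test, the smallest that 3 against 5 mice allow, and an adjusted p of 0.143 over the 4 tests. Without the cells whose barcode another library also held it was -5.21 UMIs, and without WT tamoxifen mouse 5 it was -2.95.

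Within the *Hcrt*-led type, which held most *Trh*, the same order was seen. Its *Trh* level was 17.5, 495.3 and 493.7 CPM in WT oil mice 1 to 3 and 192.6, 405.5, 225.9, 339.9 and 290.3 CPM in WT tamoxifen mice 1 to 5. It was 53.4, 72.5, 199.6 and 161.4 CPM in cKO oil mice 1 to 4 and 172.4, 0, 20.2 and 159.1 CPM in cKO tamoxifen mice 1 to 4. Every cKO tamoxifen mouse was below every WT tamoxifen mouse, while under oil the groups overlapped because WT oil mouse 1 was the lowest of all oil mice. How many other genes of this type were ordered in this way was not counted. The order rested on few neurons. In WT tamoxifen mouse 3, 1 neuron held 37 of the 43 *Trh* UMIs of the type. In mice 5, 1 and 4 of that group 1 neuron held 37 of 48, 27 of 54 and 25 of 50. Only 11 neurons of the type came from cKO tamoxifen mouse 2. The share of its neurons with a *Trh* UMI overlapped, at 5.36% to 12% in WT and 0% to 10% in cKO tamoxifen mice. The log2 fold change of cKO against WT was -1.59 (SE 0.63, 95% interval -2.90 to -0.27, unadjusted p = 0.0203) under tamoxifen and -1.32 (SE 0.62, -2.61 to -0.03, unadjusted p = 0.0459) under oil, and with adjustment over the 5368 genes tested in this type both missed the threshold (adjusted p = 0.9999 and 0.9988). Tamoxifen against oil gave -0.22 (SE 0.57) in WT and -0.49 (SE 0.69) in cKO mice, and the difference between responses was -0.27 (SE 0.89), also without a call. No gene was called in this type in any of the 5 comparisons (0% each), with 173 to 219 at an unadjusted p under 0.05. Without both libraries that stood apart, cKO against WT was -0.99 under tamoxifen and -0.96 under oil, and tamoxifen against oil turned to 0.09 in WT and 0.05 in cKO mice. With 1 library left out at a time, cKO against WT ran from -2.26 to -1.03 under tamoxifen and from -1.85 to -0.89 under oil. In the *Pmch*-led type *Trh* gave 0.54 (SE 0.87) and -2.15 (SE 0.97) for tamoxifen in WT and cKO mice, 1.77 (SE 0.88) and -0.92 (SE 0.99) for cKO under oil and tamoxifen, and -2.69 (SE 1.32) for the difference between responses. None was called among 198 genes, of which 0% passed in each comparison and 1 to 14 had an unadjusted p under 0.05. In the *Pomc*-led type, with 24 neurons with *Trh*, the order was different: tamoxifen gave -1.08 (SE 0.60) in WT and -0.03 (SE 0.66) in cKO mice, cKO against WT -1.10 (SE 0.64) under oil and -0.04 (SE 0.63) under tamoxifen, and the difference between responses was 1.06 (SE 0.89). None of 5185 genes was called there (0% in each comparison), with 160 to 227 at an unadjusted p under 0.05.

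*Crh* in neurons rested on 260 UMIs and did not differ beyond the spread between mice. In WT oil mice 1 to 3 it was 0, 5.13 and 46.1 CPM, where the 0 allows up to 4.90 CPM. In WT tamoxifen mice 1 to 5 it was 5.31, 25.7, 5.37, 6.41 and 29.2 CPM. In cKO oil mice 1 to 4 it was 2.45, 11.3, 14.1 and 13.8 CPM, and in cKO tamoxifen mice 1 to 4 it was 14.96, 19.002, 17.1 and 11.02 CPM. The cKO tamoxifen mice were the most alike, at 15.5 ± 3.42 CPM (SD, n = 4), while WT oil mice spread from none to the highest of all at 17.1 ± 25.3 (n = 3). The log2 fold changes of the edgeR fit were -0.41 (SE 0.78) and 0.54 (SE 0.78) for tamoxifen in WT and cKO mice, -0.78 (SE 0.83) and 0.17 (SE 0.72) for cKO under oil and tamoxifen, and 0.95 (SE 1.10) for the difference between responses (adjusted p = 0.94 or more). WT oil mouse 3, one of the libraries that stood apart, held 45 of the 51 *Crh* UMIs of its group. Without it the WT tamoxifen response turned from -0.41 to 2.11 (SE 0.95), cKO against WT under oil from -0.78 to 1.74 (SE 0.99), and the difference between responses from 0.95 to -1.58 (SE 1.15), none of them called. The share of neurons with at least 2 *Crh* UMIs was 0.305% to 0.460% in the 4 groups, and no comparison passed the exact permutation test (lowest adjusted p = 0.898). Too few neurons had *Crh* for the amount per neuron to be compared, and *Crh* did not reach the count minimum in the neuron types that were fitted. The *Oxt*-led type was not fitted. A fit needed at least 2 mice per group with at least 10 neurons of the type, and WT oil mice 1 and 2 had 2 each.

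*Gnrh1* in a mouse depended on whether 1 of the neurons rich in it had been captured. In WT oil mice 1 to 3 it was 148.6, 0.855 and 66.6 CPM. In WT tamoxifen mice 1 to 5 it was 3.32, 3.81, 368.6, 260.6 and 1.88 CPM. In cKO oil mice 1 to 4 it was 376.6, 437.6, 4.35 and 3.25 CPM, and in cKO tamoxifen mice 1 to 4 it was 295.2, 2.38, 177.7 and 34.2 CPM. Each group held mice below 5 CPM and mice above 140 CPM, and the 9 mice above 30 CPM were those with a neuron of more than 10 UMIs. Without these neurons the level was 0 to 5.13 CPM in all 16 mice. A single neuron held 75.1% to 100% of the *Gnrh1* UMIs in each of the 9 mice. The log2 fold changes were 0.86 (SE 1.59) and -0.60 (SE 1.41) for tamoxifen in WT and cKO mice, 1.59 (SE 1.66) and 0.13 (SE 1.34) for cKO under oil and tamoxifen, and -1.47 (SE 2.13) for the difference between responses (edgeR adjusted p = 0.95 or more). Neurons with at least 2 *Gnrh1* UMIs numbered 3 of 1290 in WT oil, 4 of 3369 in WT tamoxifen, 5 of 2394 in cKO oil and 3 of 2090 in cKO tamoxifen mice, and their shares did not differ by the exact permutation test (lowest adjusted p = 0.898). With 0 to 2 such neurons per mouse, a difference between groups was not detectable at this depth, and fold changes within neuron types are not given.

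The other genes of the 3 axes gave no call either. Of the 71 genes in 9 lists, which held receptors, feedback receptors, regulators, precursor-processing enzymes and neighbouring signals, 60 were tested in the neurons and 0 passed in any of the 5 comparisons, with list medians from -0.64 to 0.71 on the log2 scale. The thyroid axis list had 7 of its 9 genes tested, with medians of 0.04 and -0.09 for tamoxifen in WT and cKO mice against 0.005 and -0.02 over all genes. The stress axis list had 8 of 12 tested, with medians of -0.10 and -0.07, and the reproductive axis list 10 of 13, with 0.18 and -0.10. The 1 gene called in neurons was *Nov*, a secreted matricellular protein, higher in cKO than in WT mice under tamoxifen (log2 fold change 3.69, SE 0.38, edgeR adjusted p = 2.3e-04).

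Neurons with *Trh* differed from the other neurons of the same mice in the genes that place them. In the 14 libraries with at least 5 neurons that had 2 or more *Trh* UMIs, 127 such neurons were summed and compared with the 8181 other neurons of the same libraries. Of 6769 genes, 48 (0.709%) were higher and 106 (1.57%) lower, with *Trh* itself left out of the test since it chose the cells. SEs, intervals and p-values of this fit rest on a spread estimated over all genes together, and do not measure how far 1 gene varied between mice. Neurons with *Trh* were deeper, at a median of 2730 UMIs against 1481.5, and with only neurons of at least 1000 UMIs on both sides 39 genes were higher and 77 lower. With TMM factors, used first and replaced by library totals after these calls had been seen, 16 were higher and 233 lower.

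Of the 7 hypothalamic regional factors 4 were tested, and of these 3 were higher and none lower, with a list median of 1.93 against -0.01 over all genes. The rest did not reach the count minimum. *Nkx2-1* had a UMI in 3.82% of neurons with *Trh* and 5.20% of the others, *Lhx6* in 2.29% and 1.74%, and *Foxb1* in 0% and 2.91%. *Otp* was at 242.5 ± 155.9 CPM in neurons with *Trh* and 33.4 ± 12.5 CPM in the others (SD, 14 libraries), a log2 fold change of 2.71 (SE 0.26, edgeR adjusted p = 1.2e-22), and higher in 13 of 14 libraries. *Sim1* was at 160.04 ± 139.1 against 30.4 ± 9.04 CPM (2.30, SE 0.30, edgeR adjusted p = 8.5e-12), and *Pou3f2*, another factor of this neuroendocrine lineage, at 120.3 ± 127.8 against 38.5 ± 9.83 CPM (1.56, SE 0.32, edgeR adjusted p = 1.5e-04). *Arnt2*, the partner of *Sim1*, was at -0.04 (SE 0.35) and was not called. Counted per cell, 44 of 131 neurons with *Trh* had an *Otp* UMI (33.6%) against 3.17% of other neurons, and 31 (23.7%) a *Sim1* UMI against 3.55%. *Otp*, *Sim1* and *Pou3f2* stayed past the threshold in each of the 7 alternatives run for this comparison. Among genes outside the lists, named after their values were seen, *Cbln2*, *Cartpt*, *Nxph4* and *Nrn1* were higher, by 2.24, 1.84, 1.70 and 1.54. *Cartpt* encodes the CART peptide precursor and *Cbln2* a synaptic organizer.

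The transmitter genes separated as well. Of 4 tested, 3 were lower: *Slc32a1*, the vesicular GABA transporter, by -1.86 (SE 0.35), and *Gad2* and *Gad1*, which make GABA, by -1.23 (SE 0.17) and -0.85 (SE 0.24). *Slc17a6*, the vesicular glutamate transporter of the hypothalamus, was at -0.43 (SE 0.21, edgeR adjusted p = 0.42). Its transcript was found in 29.8% of neurons with *Trh* and in 20.6% of the others, whereas *Slc32a1* was found in 8.40% and 18.3%. Neurons with *Trh* were deeper, and the part of depth in these shares was not tested. *Tcf7l2*, which marks thalamic and habenular neurons next to the dissected region, was lower by -3.03 (SE 0.62).

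Genes of other secreted peptides went both ways in neurons with *Trh*. *Cartpt* was among the higher genes above, while 4 were lower: *Oxt* by -5.92 (SE 0.30), *Tac2* by -5.46 (SE 0.37), *Avp* by -4.80 (SE 0.16) and *Sst* by -4.53 (SE 0.34). These values rest on few neurons, since at least 50% of the UMIs of the other neurons lay in 5 neurons for *Oxt*, 28 for *Tac2*, 36 for *Avp* and 30 for *Sst*. Between libraries *Avp* spread widely in neurons with *Trh*, at 406.5 ± 1423 CPM (SD, 14 libraries), which its SE does not measure. In shares of neurons with a UMI the distance was smaller, with *Oxt* in 5.34% of neurons with *Trh* and 7.01% of the others and *Avp* in 9.16% and 14.6%, and wider for *Sst*, in 1.53% and 5.39%. *Sst* led the type of 304 neurons that held most *Trh* at the finer resolution, yet 2 of the 131 neurons with *Trh* had an *Sst* UMI. *Ghrh*, the growth hormone-releasing hormone precursor, did not reach the count minimum of the fit, and it was found in 15 of the 131 neurons (11.5%) against 1.28% of the others. *Th*, which makes dopamine, was at 0.66 (SE 0.37, edgeR adjusted p = 0.53) and was found in 10.7% against 4.06%. The part of depth in the shares of *Ghrh* and *Th* was not tested.

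The feedback receptors given here went both ways in neurons with *Trh*. *Nr3c1*, the glucocorticoid receptor, was higher by 0.72 (SE 0.21, edgeR adjusted p = 0.038) but lost its call under TMM factors (adjusted p = 0.21) and without the cells of shared barcodes (adjusted p = 0.27). *Thrb* and *Thra*, the thyroid hormone receptors, were at 0.70 (SE 0.31) and -0.37 (SE 0.20), and *Trhde*, which degrades TRH, at 0.51 (SE 0.35), none of them called. *Esr1* was at -0.96 (SE 0.46, edgeR adjusted p = 0.39). All 10 genes of precursor processing were tested, and 0 passed, with a median of 0.11. These enzymes and granule proteins are used by peptidergic neurons in general.

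**Figure D4:**
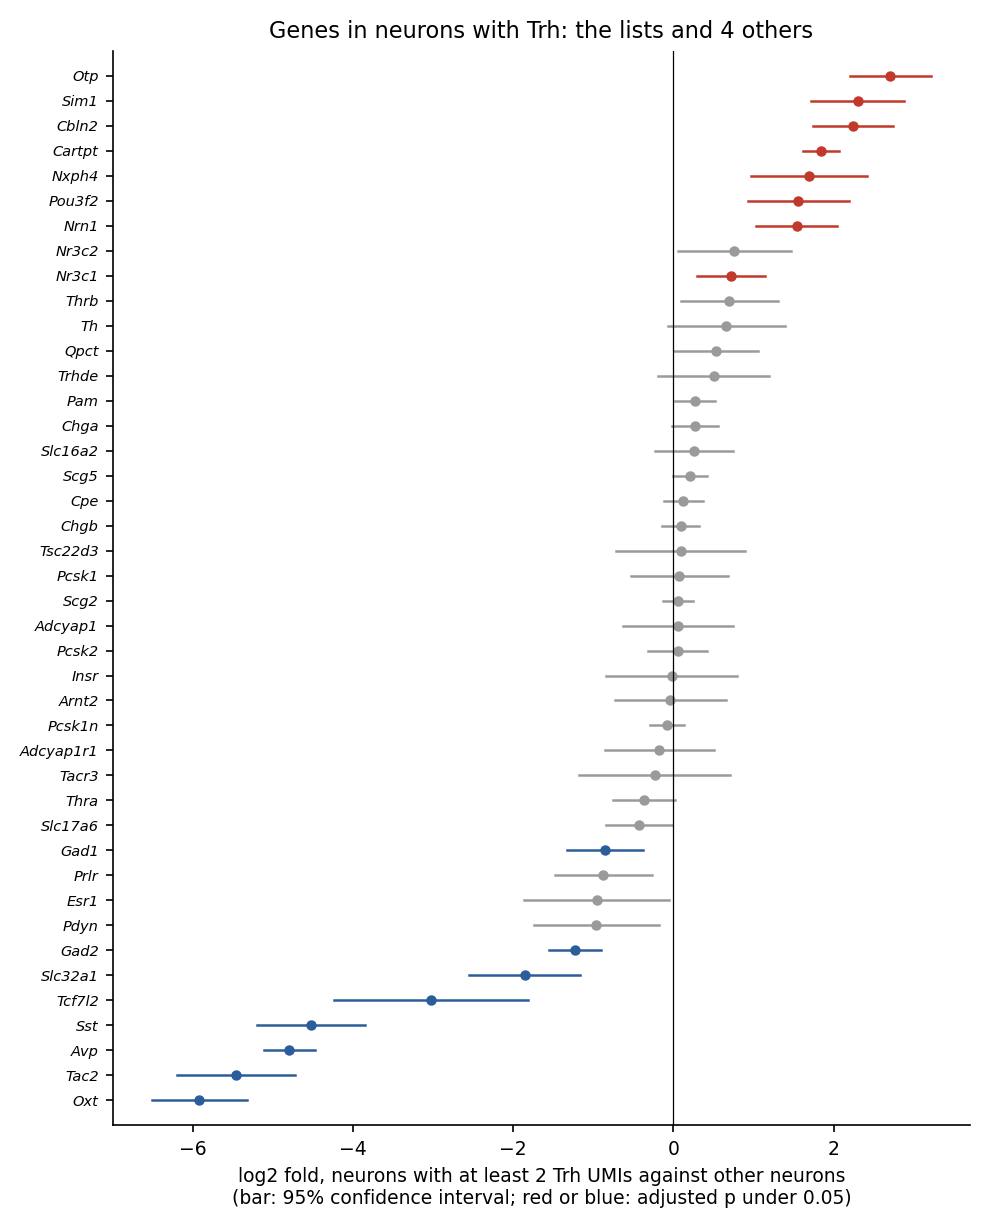
Log2 fold change (x axis) of the list genes tested but 1, and of 4 genes named after their values were seen, in neurons with at least 2 *Trh* UMIs against the other neurons of the same 14 libraries, with 95% confidence intervals. The intervals rest on a spread estimated over all genes together. Red and blue mark genes past the threshold, from *Otp* at 2.71 to *Oxt* at -5.92, and grey marks genes that did not pass.

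Neurons with *Crh* and *Gnrh1* were too few for such a fit, with 1 and 0 libraries that held at least 5 of them, and are described by counts. Of the 34 neurons with *Crh*, 15 had an *Nr3c1* UMI (44.1%, against 17.2% of other neurons) and 6 had *Sim1* (17.6% against 3.79%). Of the transmitter genes, 13 had *Slc17a6* (38.2% against 20.7%), 5 had *Slc32a1* (14.7% against 18.1%), 12 had *Gad2* (35.3% against 35.9%) and 5 had *Gad1* (14.7% against 22.9%). Over all UMIs of these neurons, *Slc17a6* was at 228.2 CPM against 224.9 in the others, *Gad2* at 608.6 against 603.3, *Slc32a1* at 76.1 against 134.7 and *Gad1* at 47.5 against 195.3. *Avp*, the vasopressin precursor that paraventricular CRH neurons can also make, was found in 9 of them (26.5% against 14.4%), and *Adcyap1*, the precursor of PACAP, in 8 (23.5% against 6.83%). The median depth of neurons with *Crh* was 2773 UMIs against 1489 in the others, and the part of depth in these shares was not tested.

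Of the 15 neurons with *Gnrh1*, 6 had an *Slc17a6* UMI (40.0% against 20.7% of other neurons) and 1 had *Slc32a1*. *Gad2* was found in 5 (33.3% against 35.9%) and *Gad1* in 3. Over all UMIs of these neurons, *Slc17a6* was at 184.4 CPM against 225 in the others and *Slc32a1* at 18.4 against 134.7. *Gad2* was at 295.1 CPM against 604.2 and *Gad1* at 92.2 against 194.8. *Kiss1r*, the kisspeptin receptor through which upstream neurons drive GnRH release, was found in 2 of the 15 (13.3% against 0.898%). *Esr1* was found in 2 (13.3% against 8.03%) and *Sim1* in 1. In level, *Kiss1r* was at 36.9 CPM, from 2 UMIs, against 4.74 in the others, and *Esr1* at 55.3 against 53.2. *Otp* and *Trh* were found in none of the 15, a count that allows a share with a UMI of up to 20% (3 counts). Their median depth was 4674 UMIs against 1488.5 in the others, and the part of depth in these shares was not tested.

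The receptors of the hormones were read in the same libraries, although the anterior pituitary, which the hormones stimulate, was represented only by a cluster of 198 cells called pars tuberalis from its markers. In these 198 cells *Trhr*, *Trhr2*, *Crhr1*, *Crhr2* and *Gnrhr* had 0 UMIs, which allows a share with a UMI of up to 1.52% (3 counts). *Trhr*, the TRH receptor, was highest in neurons at 30.8 ± 12.5 CPM (SD, 16 mice, 13.1 to 48.9), ahead of astrocytes at 7.52 ± 4.35 and ependymal cells at 7.44, which did not differ beyond their spread. Neurons held 82.2% of its UMIs, 442 neurons had at least 1, and 2 of the 131 neurons with *Trh* did (1.53% against 4.88% of the others). *Crhr1*, the main CRH receptor, was at 9.83 ± 3.95 CPM in neurons and 2.74 to 5.54 CPM in glial and vascular cells, and *Crhr2* was at 5.32 ± 2.76 CPM in neurons and 9.32 in mural cells, where the spread was wider than the mean. *Gnrhr* was at 1.12 ± 1.88 CPM, with 14 neurons that had a UMI, and *Trhr2* at 0.128 CPM, with 2.

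**Figure D5:**
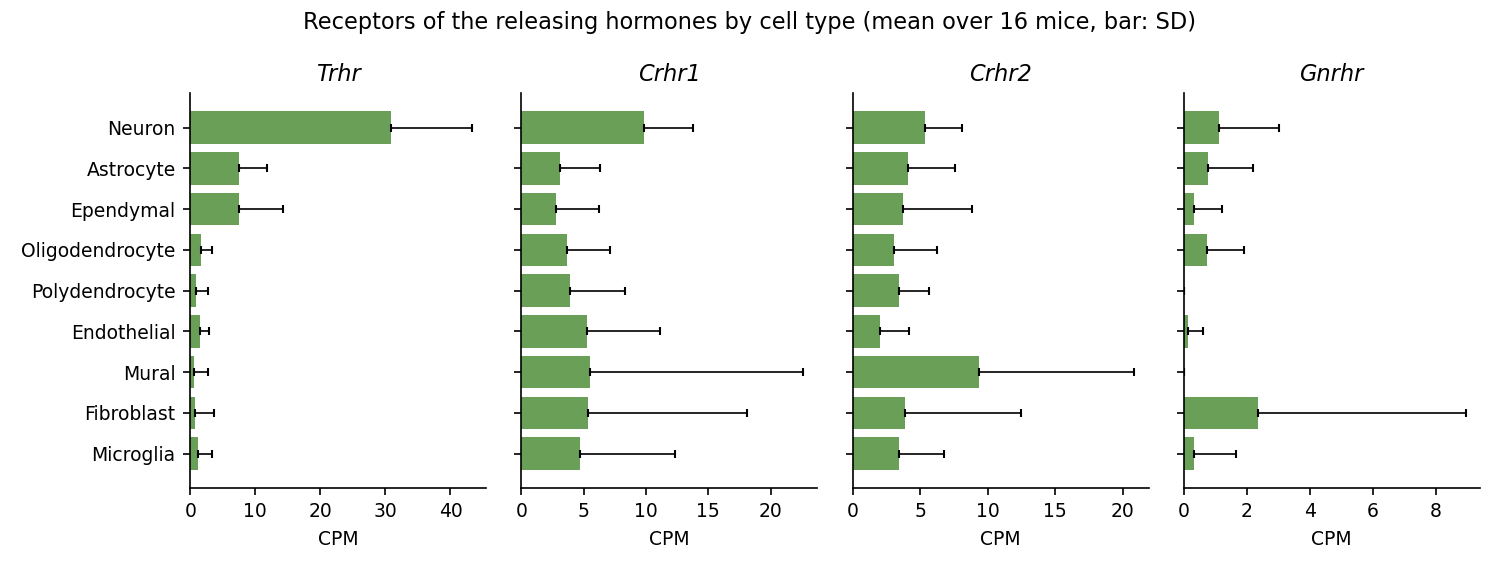
CPM (x axis) of *Trhr*, *Crhr1*, *Crhr2* and *Gnrhr* in 9 cell types (y axis), as the mean over 16 mice with the SD drawn to the right. *Trhr* stands highest in neurons at 30.8 CPM, followed by astrocytes at 7.52, while the bars of the other 3 receptors overlap between most types.

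Across the 23 neuron types, the genes whose pattern was most like that of a member were named by Pearson's correlation of log2(CPM + 1) among 15697 genes. For *Trh* these were *Gm17660* (r = 0.83), *Cd82* (0.78), *Frrs1* (0.78), *Crh* (0.77) and *Cyp4f15* (0.76). For *Crh* they were *Pcdhb19* (0.81), *Trh* (0.77), *Fkbp2* (0.74), *Tm9sf4* (0.74) and *Rxfp3* (0.73), and for *Gnrh1* *Tnnt1* (0.63), *Pomc* (0.60), *C4b* (0.60), *Sst* (0.59) and *Calca* (0.57). The types share their libraries and differ in depth, and the levels of several of these genes were low, so the correlations are a description only. Of those named for *Trh*, *Gm17660*, *Frrs1* and *Cyp4f15* were highest at 20.6 CPM and *Cd82* at 41.3 CPM, all in the type led by *Hbb-bs*. In that type of 62 neurons 1 UMI made 20.6 CPM.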

How the data were processed

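The authors deposited, for each of the 16 mice, UMI counts per gene and cell barcode, without normalization. The submitters' processing notes name STAR 2.6 and mm10, while the annotation is not given in the sources used here. Barcodes were kept between 200 and 4000 genes if under 15% of their UMIs were mitochondrial. They were clustered with Seurat 5.3.0 in R 4.3.3 after anchoring the 4 groups, and clusters were named from listed markers. Neurons were clustered again at a resolution of 0.7 with 500 variable genes and without the 3 members. Scrublet called 476 cells (0.855%) doublets, which were removed only in an alternative. CPM is the number of UMIs per 1000000 UMIs of the cells summed.

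Counts were summed per mouse and tested with edgeR 4.0.16 (quasi-likelihood, TMM, filterByExpr, Benjamini-Hochberg, threshold 0.05) in 1 fit of all 4 groups. Shares and UMIs per neuron were compared by two-sided exact permutation tests over mice. Neurons with *Trh* were compared with other neurons of the same library with the library as a block and library totals as sizes. This comparison was first fitted with TMM factors. They shifted unchanged genes in simulated counts more than library totals did, and the change to library totals was made after the calls under TMM factors had been seen. In the simulated counts both sides began from the same mean profile, and equal numbers of genes were raised and lowered. They cannot show which sizes suit sides that differ in abundant genes, as these neurons did. The edgeR fits were tested on simulated data for tamoxifen against oil in WT neurons and for neurons with *Trh*. DESeq2 1.42.0 was an alternative. The mouse is the replicate, and the labels do not give the processing day (4 mice a day over 4 days in the study's methods). The genes named by rule are the members, the receptors, list genes past the threshold and the 5 genes most like a member. Other genes, among them list genes that did not pass or were not fitted, are named outside these rules. The rule for the 8 largest genes higher in every library fitted named none. The result of 1 list gene is not reported here. The members and lists were chosen with earlier results of these data known.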

Additional observations from a re-analysis of the deposited data

Results flagged for a closer look

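In 20 sets of values, each of 1 gene and 1 measure in a group of 4 or 5 mice, 2 values stood far from the rest of their group. Chance gives about 1 such value in 20 sets if these are independent and normal. The sets here shared the same mice, and their distribution was not tested. *Trh* in the neurons of WT tamoxifen mouse 2 was 95.2 CPM, against 49.8 to 62.5 CPM in the other 4 mice of the group. The mean number of *Trh* UMIs per neuron with *Trh* was 14.25 in WT tamoxifen mouse 5, from 4 neurons, against 6.67 to 8.0 in the other 4 mice.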

How the results depend on the processing

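No paired analysis was possible because the labels give the groups no shared replicate numbers and no day. Successive fours of library numbers, 3 of which held 1 mouse of each group, were fitted as a block in an alternative. Of 402 values of the 3 members in neurons under an alternative, 0 passed the threshold (lowest adjusted p = 0.610) and 28 changed sign. Of 252 shares 23 changed sign, of 72 mean UMIs per neuron 2, and of 260 values in neuron types 22, and 0 passed. Where no cause is named, the cause was not tested.

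Without both libraries that stood apart, the difference between the tamoxifen responses of both genotypes in neurons turned to 0.049 (log2) for *Trh* and -1.66 for *Crh*, *Crh* turned to 2.06 for tamoxifen in WT mice and 1.72 for cKO against WT under oil, and *Gnrh1* to -0.0094 for cKO against WT under tamoxifen. *Trh* in the *Hcrt*-led type turned to 0.086 and 0.049 for tamoxifen in WT and cKO mice. *Trh* in the *Pomc*-led type turned to 0.060 for tamoxifen in cKO mice and 0.058 for cKO under tamoxifen, and to 0.022 and 0.12 when the members were among the variable genes. The difference between responses for *Trh* turned to 0.23 with cells of more than 500 genes and 0.31 with a mitochondrial share under 5%. That last limit also turned cKO against WT under tamoxifen to -0.49 for *Crh* and -0.50 for *Gnrh1*, and fours of library numbers as a term turned the latter to -0.54. Genes called in neurons were 1 with DESeq2 for tamoxifen in WT mice, 1 with DESeq2 and 1 without a filter for cKO against WT under oil, and for cKO against WT under tamoxifen 3 with DESeq2, 2 without a filter, 2 without both libraries and 0 with all kept cells.

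Shares, in percentage points, turned as follows when neurons were thinned to 500 UMIs, which left out 1817 shallower neurons: *Trh* to 0.284 for tamoxifen in WT mice and 0.321 for cKO under oil, and *Gnrh1* to 0.0407 for tamoxifen in WT mice, 0.0407 for cKO under oil and -0.112 for cKO under tamoxifen. Without both libraries *Crh* turned to 0.209 and 0.0361 for tamoxifen in WT and cKO mice and *Gnrh1* to 0.0497 for cKO under oil. With at least 1 UMI *Crh* turned to 0.225 for tamoxifen in cKO mice and *Gnrh1* to 0.0893 for cKO under oil, and with at least 3 UMIs *Crh* to -0.0371 for cKO under oil. In neurons with *Trh*, 95 genes were higher with at least 1 UMI, 28 higher and 61 lower with at least 3, and 16 higher and 233 lower with TMM factors, which were used first and became an alternative after these counts had been seen. Leaving out cells of shared barcodes was also chosen after seeing the data. At a resolution of 1.2 the leading type held 55.5% of *Trh* and 57.7% of *Gnrh1* UMIs.

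With each library left out in turn, the difference between responses in neurons ran from -0.71 to 0.28 for *Trh* and -1.58 to 1.46 for *Crh*. *Crh* ran from -0.92 to 2.11 for tamoxifen in WT mice, -1.29 to 1.74 for cKO under oil and -0.060 to 0.61 for cKO under tamoxifen. *Gnrh1* ran from -0.0094 to 1.86 and -1.28 to 0.074 for tamoxifen in WT and cKO mice and -0.55 to 1.01 for cKO under tamoxifen, where 1 to 2 genes were called. *Trh* ran from -0.76 to 0.21 and -1.16 to 0.054 for tamoxifen in WT and cKO mice and -0.94 to 0.28 for the difference between responses in the *Hcrt*-led type, and from -0.14 to 1.39 for tamoxifen in WT mice in the *Pmch*-led type. In the *Pomc*-led type it ran from -0.34 to 0.14 for tamoxifen in cKO mice and -0.36 to 0.13 for cKO under tamoxifen. Shares ran from -0.457 to 0.0766 for *Trh* and -0.0248 to 0.0515 for *Gnrh1* for cKO under tamoxifen, from -0.245 to 0.209 and -0.172 to 0.0716 for *Crh* for tamoxifen in WT and cKO mice, and from -0.0906 to 0.363 for *Crh* and -0.177 to 0.0497 for *Gnrh1* for cKO under oil. UMIs per neuron with *Trh* ran from -1.73 to 2.62 for tamoxifen in WT mice. With 243 to 904 neurons per mouse, 0 to 2 neurons held at least 2 *Gnrh1* UMIs and 0 to 6 at least 2 *Crh* UMIs in each, and differences in these were limited by that depth.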
